A study of Mus musculus with 4 samples.

Results

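Transcripts of 10 Notch genes were followed in pancreas cells that descend from acinar cells, which make the digestive enzymes, during repeated caerulein injury. The genes were 3 receptors (Notch1, Notch2, Notch3), 4 ligands (Dll1, Dll4, Jag1, Jag2) and 3 factors of the HES and HEY families (Hes1, Hes6, Hey1). They were given by symbol as a pathway set, with no threshold on measured values, and all 10 were found among the 32288 features of the table of EYFP-positive cells. All mice were Ptf1aCre-ERTM;ROSAYFP/+ animals backcrossed into CD-1, in which tamoxifen switches on EYFP in cells with Ptf1a activity, so that only descendants of cells marked at that time are followed. They received 5 mg of tamoxifen a day on 5 days a week for 2 weeks. Caerulein, a secretagogue peptide that causes pancreatitis, was started at 10 weeks of age and given on 5 days a week for 2 weeks (2 mice) or 4 weeks (2 mice). EYFP-positive cells were sorted and single-cell RNA was counted as UMIs, molecular tags that count each captured transcript once. No group without caerulein was analysed here.

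Notch signalling works between touching cells. A ligand of the Delta-like or Jagged family on a sender cell binds a receptor on a receiver cell, the receptor is cut, and its intracellular part joins RBPJ in the nucleus and switches on repressors such as Hes1 and Hey1. In the developing pancreas and the gut, Hes1 is known to hold back Neurog3, the factor that starts endocrine differentiation, and cells with Neurog3 in turn express Delta-like ligands. Hes6 is an unusual family member that is known as a target of proneural factors and as an antagonist of Hes1.

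The table held 13362 cells with an author-given type, 2984 and 3590 from the 2-week mice and 2814 and 3974 from the 4-week mice, with 60224505 to 90547790 UMIs per mouse. All 13362 cells had at least 1 EYFP UMI. The authors named 8 types, and 9 subtypes for the 2586 cells of the tuft and enteroendocrine (EEC) lineages. Defining markers were in place: the mean level of Cpa1 was 20293 CPM (UMIs of a gene per 1000000 UMIs of a mouse and type) in Acinar cells, Muc6 was 4384 CPM in MucinDuctal cells, Dclk1 was 1495 CPM in Tuft cells and Neurog3 was 2411 CPM in the EEC-Progenitor (Neurog3+) subtype. In the Tuft/EEC.Progenitor type, Sox4 reached 4057 CPM, Neurog3 273 CPM and the tuft factor Pou2f3 58.7 CPM. This type mixes 148 cells of the MucinDuctalProgenitor subtype with 57 of the EEC-Progenitor (Neurog3+) subtype, so its levels are averages over both. Neurog3 was 35.6 CPM in the first subtype and 2411 CPM in the second, and Pou2f3 was 86.5 and 2.81 CPM. Tuft/EEC.Progenitor had 10 and 142 cells in the 2-week mice and 25 and 28 cells in the 4-week mice. Levels are given only for a type with at least 20 cells in a mouse. A total of 23 cell barcodes occurred in more than 1 mouse, on 47 cells. Since the authors built the types from the same transcripts, differences between types are descriptions and carry no test.

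Reference promoters were examined for the members whose levels were highest around Neurog3-positive cells, because proneural factors such as NEUROG3 bind E-boxes, short motifs of the form CANNTG. RefSeq starts on GRCm38.p6, the build also called mm10, were matched by symbol for 8 of the 10 members with 10 start sites; Hes1 and Hey1 were not among them. Of the 250 bases before each start, the sequences below belong to the Neurog3-associated members Hes6 and Dll4 and to Dll1, whose highest type was Tuft/EEC.Progenitor. They are written 5′ to 3′ on the gene's strand, and capitals mark the palindromic E-box CAGCTG.
Hes6, start farther 3′ (chr1:91413223-91413472, minus strand): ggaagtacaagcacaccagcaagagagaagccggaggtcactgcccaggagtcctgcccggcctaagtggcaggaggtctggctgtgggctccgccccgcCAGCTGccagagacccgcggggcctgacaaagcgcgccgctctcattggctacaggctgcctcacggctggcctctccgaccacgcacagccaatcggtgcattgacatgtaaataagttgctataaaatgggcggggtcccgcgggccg
Hes6, start farther 5′ (chr1:91414039-91414288, minus strand): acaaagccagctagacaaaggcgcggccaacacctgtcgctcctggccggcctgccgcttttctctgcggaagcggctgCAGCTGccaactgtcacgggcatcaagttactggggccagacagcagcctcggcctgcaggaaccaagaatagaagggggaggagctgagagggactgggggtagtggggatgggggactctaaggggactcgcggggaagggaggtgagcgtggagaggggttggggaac
Dll1, start farther 5′ (chr17:15376933-15377182, minus strand): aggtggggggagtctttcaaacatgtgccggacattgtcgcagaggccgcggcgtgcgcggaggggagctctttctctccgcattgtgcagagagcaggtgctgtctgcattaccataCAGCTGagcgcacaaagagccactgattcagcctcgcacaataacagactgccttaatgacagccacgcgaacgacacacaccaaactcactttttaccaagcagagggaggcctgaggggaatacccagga
Dll4 (chr2:119325534-119325783, plus strand): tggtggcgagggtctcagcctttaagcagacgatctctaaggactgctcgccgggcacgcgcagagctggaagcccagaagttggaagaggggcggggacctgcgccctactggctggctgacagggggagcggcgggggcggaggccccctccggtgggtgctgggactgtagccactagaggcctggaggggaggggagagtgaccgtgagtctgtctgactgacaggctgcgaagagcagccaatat

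One CAGCTG lay 150 and 171 bases before the respective Hes6 starts, counted from the motif's first base, and 132 bases before the printed Dll1 start. Another lay 82 bases before the Jag1 start. The Dll4 window, the window of the other Dll1 start and those of Notch1, Notch2, Notch3 and Jag2 did not hold these letters. The motif is present in 13.0% of the 32851 RefSeq windows of this length, searched on both strands. A second E-box, CAGATG, is in 14.4% of all windows, and GTGGGAA, the letters of the RBPJ site, in 5.42%, neither of them in any of the 10 member windows. These matches describe letters and were not measured as binding.

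Notch1 and Notch2 were highest in Ductal-like cells, and the mean of Notch1 was lowest in the Neurog3-positive endocrine progenitors. The exception was Notch1 on totals without digestive enzyme and Reg genes, where Acinar.Prolif cells led with a mean of 59.2 CPM and Ductal-like cells had 50.1 CPM. Acinar cells, at 34.4 to 70.6 CPM on those totals, also had a higher mean than Ductal-like cells, with overlapping ranges. Notch1 had the largest mean share of receptor UMIs in each of the 8 types. On the full totals it was 50.9 and 43.0 CPM at 2 weeks and 50.2 and 44.8 CPM at 4 weeks in Ductal-like cells. Every one of these mice was above each MucinDuctal value, which ran from 30.2 to 34.4 CPM, and the mean was 47.2 ± 3.9 CPM against 32.0 ± 2.0 CPM (SD, n = 4). Acinar/MucinDuctal intermediates, shallow in 3 mice (median 2659 to 3555 UMIs) and deep in 1 (19556), stood at 32.1 ± 5.2 CPM and overlapped with MucinDuctal cells. Next came Acinar.Prolif at 29.5 ± 9.6 CPM, Tuft/EEC.Progenitor at 23.7 ± 10.7 CPM (n = 3), Tuft at 20.1 ± 2.8 CPM, Acinar at 20.0 ± 7.1 CPM and EEC at 11.4 ± 4.3 CPM, with overlapping ranges between neighbours.

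Among the subtypes the mean of Notch1 was lowest at the Neurog3-positive stage. The EEC-Progenitor (Neurog3+) subtype had 5.87 and 8.68 CPM at 2 weeks and 2.98 and 7.67 CPM at 4 weeks, against 37.8 and 23.2 CPM in the MucinDuctalProgenitor subtype of the mice with enough cells. No value of the first subtype reached one of the second, though the 23.2 CPM rested on 7 UMIs in 20 cells. Of the hormone-making subtypes, 3 overlapped with it: in the second 4-week mouse Delta (5.75 CPM), Ppy+ (6.18 CPM) and Epsilon cells (7.54 CPM) lay below the progenitors. ECL (Tac1+) cells, at 11.5 to 16.0 CPM, lay above the progenitors in every mouse. The mean within-mouse log2 difference from Tuft-3, the lowest tuft subtype, was -1.20 ± 0.65 (SD), lower in 4 of 4 mice. Log2 differences between types or subtypes, here and below, were taken with 1 CPM added to each level, which shrinks them at low levels. Differences from Acinar cells depend on the denominator. Digestive enzyme and Reg genes took 61.6% of Acinar UMIs and 3.35% of MucinDuctal UMIs. Leaving them out of the totals shifts a MucinDuctal-to-Acinar log2 ratio by 1.34 on average, before 1 CPM is added. On the full total Notch1 was higher in MucinDuctal than Acinar cells in 4 of 4 mice (log2 ratio 0.71 ± 0.45, SD), and without those genes it was lower in 4 of 4 mice (-0.58).

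Among the 8 types Notch2 was highest in Ductal-like cells. Its level there was 35.7 and 31.3 CPM at 2 weeks and 48.0 and 44.8 CPM at 4 weeks, above every value of every other type. The mean, 40.0 ± 7.8 CPM (SD, n = 4), was followed by 10.8 ± 3.5 CPM in Acinar/MucinDuctal, 8.1 ± 5.1 CPM in Tuft/EEC.Progenitor (n = 3) and 7.7 ± 1.3 CPM in MucinDuctal cells. Tuft cells had 3.3 ± 0.9 CPM, EEC 2.0 ± 0.5 CPM, Acinar 1.2 ± 0.7 CPM and Acinar.Prolif 1.1 ± 0.3 CPM. Against Acinar cells, the MucinDuctal log2 difference of 2.06 ± 0.29 (SD, 1 CPM added to each level) was positive in 4 of 4 mice on both totals. It was 1.26 without enzyme and Reg genes. At these low levels the added 1 CPM makes the difference, and its shift between totals, smaller than for the plain ratio. Notch2 made up 45.2% of the receptor UMIs of Ductal-like cells and 5.43% of those of Acinar cells. Cells without an author-given type, classed as fibroblasts and macrophages and described at the end, had Notch2 means of 43.6 and 43.0 CPM.

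Notch3, which marks mural cells of vessels in other tissues, was near its floor. The highest subtype mean was 1.8 ± 0.9 CPM (SD, n = 4) in EEC-Progenitor (Neurog3+) cells, made of 1, 5, 3 and 1 UMIs in the 4 mice. No Notch3 UMI was seen in the 494 Tuft-3 cells, a count that allows a share of positive cells of up to 0.607%, nor in Delta, ECL, Ppy+ or Tuft-1 cells. Such limits cover counting error only.

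**Figure D1:**
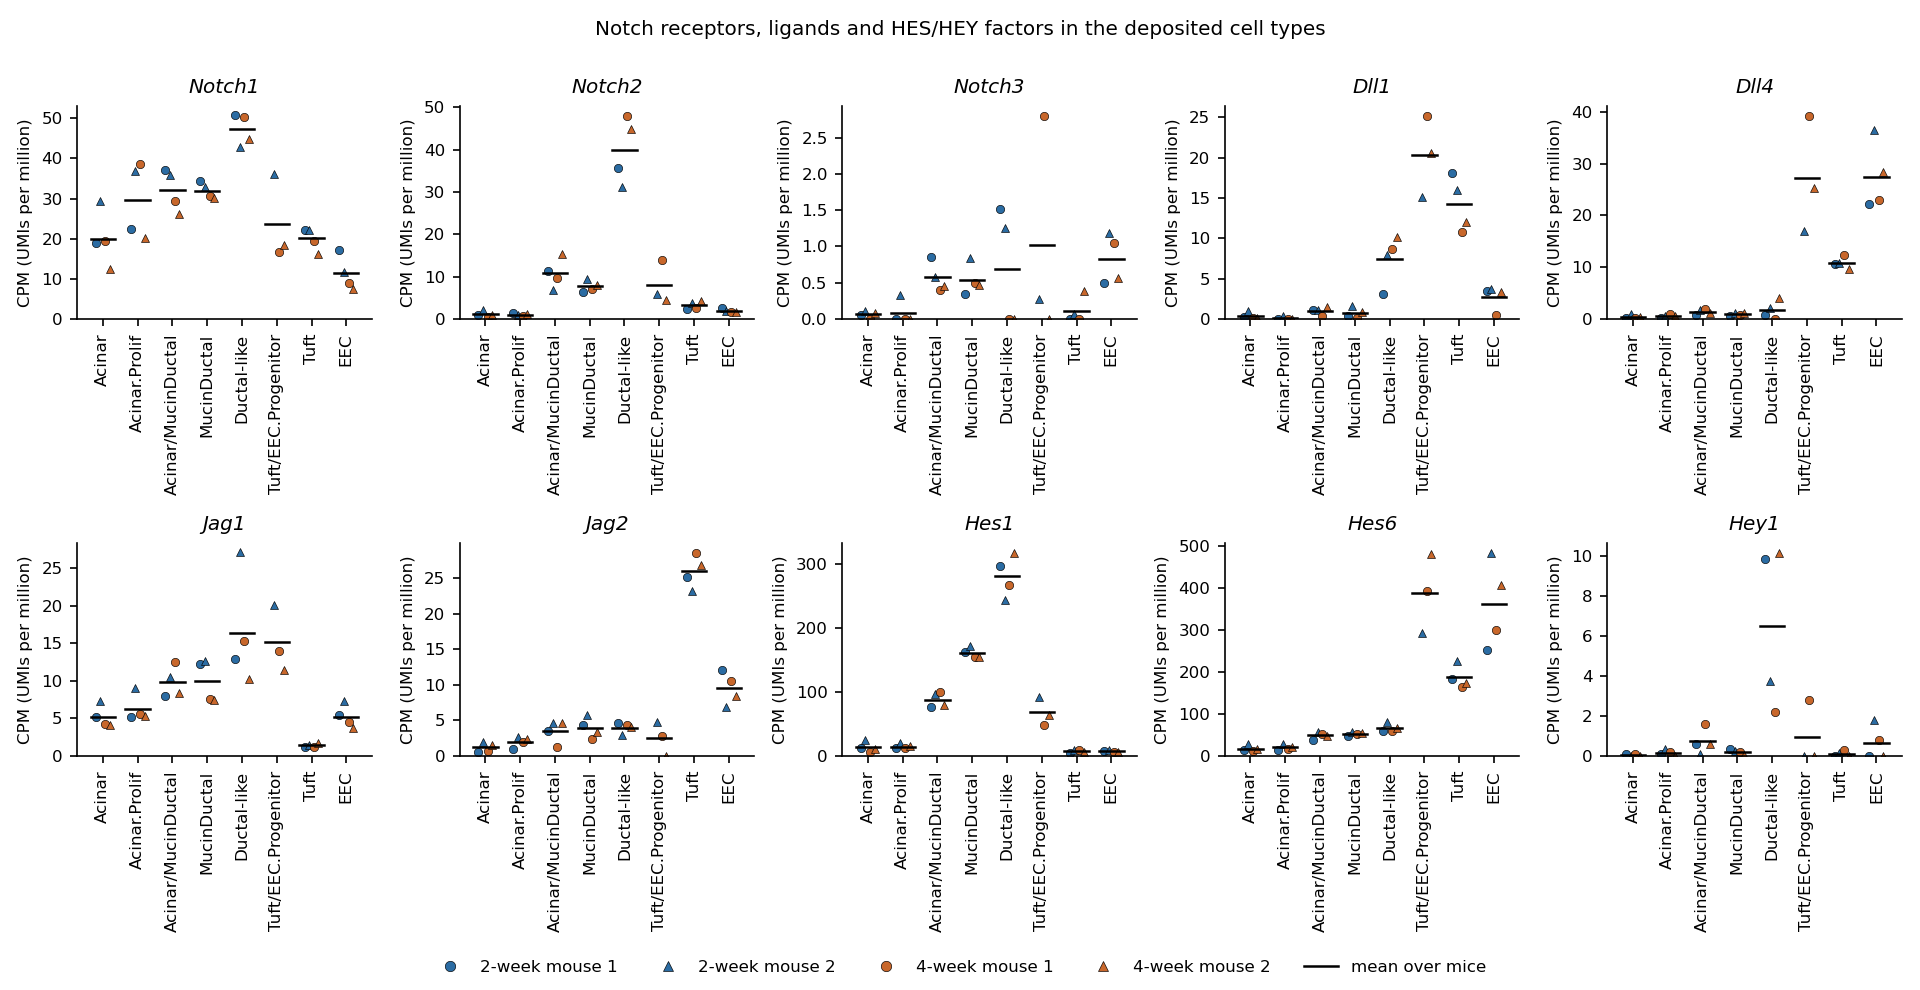
Level of each member in CPM (linear axes that differ between panels) in the 8 deposited types; each point is 1 mouse with at least 20 cells of the type and the bar is the mean over mice. Notch1, Notch2 and Hes1 stand highest in Ductal-like cells, where Hes1 averaged 281 CPM, and Dll1, Dll4 and Hes6 are high in progenitor, tuft or EEC cells.

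The Delta-like ligands were highest in Tuft/EEC.Progenitor and Tuft cells for Dll1 and in EEC and Tuft/EEC.Progenitor cells for Dll4. Dll1, known as an early ligand of secretory progenitors, was 15.1 CPM in the 2-week mouse with enough Tuft/EEC.Progenitor cells and 25.2 and 20.6 CPM in the 4-week mice. Tuft cells had 18.1 and 16.0 CPM at 2 weeks and 10.8 and 12.1 CPM at 4 weeks, ranges that overlap with the progenitors. Both types lay above all other types, of which Ductal-like cells came next at 7.5 ± 3.1 CPM (SD, n = 4), EEC at 2.8 ± 1.5 CPM and MucinDuctal at 0.7 ± 0.6 CPM. Within mice and with 1 CPM added to each level, the log2 difference of Tuft from MucinDuctal cells was 3.18 ± 0.51 (SD), higher in 4 of 4 mice. That of Tuft/EEC.Progenitor cells was 3.56 ± 0.93, higher in 3 of 3. At the low MucinDuctal level the added 1 CPM makes both smaller than the plain ratio.

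Among subtypes, Dll1 was 19.8 ± 2.7 CPM in Tuft-1 (n = 2), 16.9 ± 5.3 CPM in Tuft-3, 12.2 ± 5.6 CPM in EEC-Progenitor (Neurog3+) and 11.4 ± 5.0 CPM in Tuft-2 cells (SD, n = 4). MucinDuctalProgenitor cells had 10.8 ± 5.9 CPM (n = 2). Tuft-3 was above Tuft-2 in 4 of 4 mice, though the ranges overlapped. The hormone-making subtypes were lower, at 4.9 ± 3.1 CPM in Delta, 1.9 ± 0.3 CPM in Ppy+, 1.3 ± 1.6 CPM in Epsilon and 0.8 ± 1.6 CPM in ECL cells.

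Dll4, the ligand best known from endothelial tip cells, was highest in the Neurog3-positive endocrine progenitors. The means of tuft and hormone-making subtypes were interleaved below them. The EEC-Progenitor (Neurog3+) subtype had 42.6 and 60.3 CPM at 2 weeks and 53.6 and 57.1 CPM at 4 weeks. These values were above every mouse of every other subtype, with a mean of 53.4 ± 7.7 CPM (SD, n = 4). ECL cells had 27.8 ± 3.8 CPM, Tuft-1 22.6 ± 11.5 CPM (n = 2), Epsilon 18.5 ± 4.4 CPM, Tuft-3 11.8 ± 3.5 CPM, Delta 11.7 ± 3.7 CPM, MucinDuctalProgenitor 10.8 ± 1.1 CPM (n = 2), Ppy+ 9.3 ± 6.0 CPM and Tuft-2 7.8 ± 3.8 CPM. The MucinDuctalProgenitor values rested on 37 and 3 UMIs. The log2 ratio of the EEC-Progenitor (Neurog3+) subtype to Epsilon and Delta cells was 1.49 ± 0.35 and 2.12 ± 0.57 (SD), above 0 in 4 of 4 mice each. By type, EEC had 27.5 ± 6.6 CPM and Tuft/EEC.Progenitor 27.1 ± 11.2 CPM (n = 3), which overlapped, and Tuft 10.8 ± 1.1 CPM. The means of all other types were at or below 1.7 CPM. The Tuft/EEC.Progenitor value averages over EEC-Progenitor (Neurog3+) and MucinDuctalProgenitor cells, whose own means are given above.

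With every cell thinned to 2000 UMIs, 7.94% to 11.9% of EEC-Progenitor (Neurog3+) cells of a mouse had a Dll4 UMI, against 0.0735% to 0.189% of MucinDuctal cells. As a background level, B cells among the untyped cells of the same libraries were used, a cell type not known as a source of this ligand, classed by at least 3 of 6 fixed genes. Their median was 3376 UMIs, below the 11361 to 14480 of the EEC-Progenitor cells in the 4 mice. The 617 B cells, not thinned, held no Dll4 UMI, which allows up to 0.486% of cells with a UMI at that depth and does not limit the cells expressing the gene. They held 1 Dll1 UMI, 2 Jag1 UMIs and 2 Jag2 UMIs.

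Among the types, Jag2 was highest in Tuft cells. Its level in Tuft cells was 25.2 and 23.2 CPM at 2 weeks and 28.6 and 26.8 CPM at 4 weeks, above every mouse of every other type. The mean was 26.0 ± 2.3 CPM (SD, n = 4), followed by 9.5 ± 2.3 CPM in EEC, and no other type exceeded a mean of 4.0 CPM. Within the tuft lineage it was highest in Tuft-3, at 35.2, 32.7, 36.1 and 33.5 CPM in the 2-week and 4-week mice in that order. That subtype did not overlap with Tuft-2 (20.8 ± 3.6 CPM) or Tuft-1 (14.8 ± 0.9 CPM, n = 2), and the Tuft-3 to Tuft-2 log2 difference was 0.72 ± 0.28, higher in 4 of 4 mice. In the endocrine lineage EEC-Progenitor cells, the highest for Dll4, had the lowest mean of Jag2: 18.3 ± 4.5 CPM in Delta cells and 3.9 ± 2.1 CPM in EEC-Progenitor (Neurog3+) cells, which were lower in 4 of 4 mice by 2.07 ± 0.88 on the log2 scale.

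On the full totals Jag1, a ligand of ductal cells in many organs, had its highest means in Ductal-like and Tuft/EEC.Progenitor cells. It was 12.9 and 27.1 CPM at 2 weeks and 15.3 and 10.2 CPM at 4 weeks in Ductal-like cells, with a mean of 16.4 ± 7.5 CPM (SD, n = 4). Tuft/EEC.Progenitor cells had 15.2 ± 4.4 CPM (n = 3), MucinDuctal 10.0 ± 2.8 CPM and Acinar/MucinDuctal 9.8 ± 2.1 CPM, all overlapping. Tuft cells had the least, 1.4 ± 0.3 CPM, and lay below every mouse of the Acinar type (5.2 ± 1.5 CPM). Enzyme and Reg genes took 61.6% of Acinar and 3.35% of MucinDuctal UMIs. The order of Jag1 between Acinar and MucinDuctal cells therefore depends on the denominator and is not read. With 1 CPM added to each level, the log2 ratio of Tuft/EEC.Progenitor to Tuft cells was 2.68 ± 0.45 for Jag1, higher in the progenitors in 3 of 3 mice. For Jag2 the progenitors were lower in 3 of 3 mice, on 17, 1 and 0 UMIs. Their log2 ratio of -3.28 ± 1.39 depends on the added 1 CPM, which alone sets the value of the mouse with 0 UMIs. Among subtypes Jag1 was highest in MucinDuctalProgenitor cells, at 22.5 and 16.6 CPM in the mice with enough cells.

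**Figure D2:**
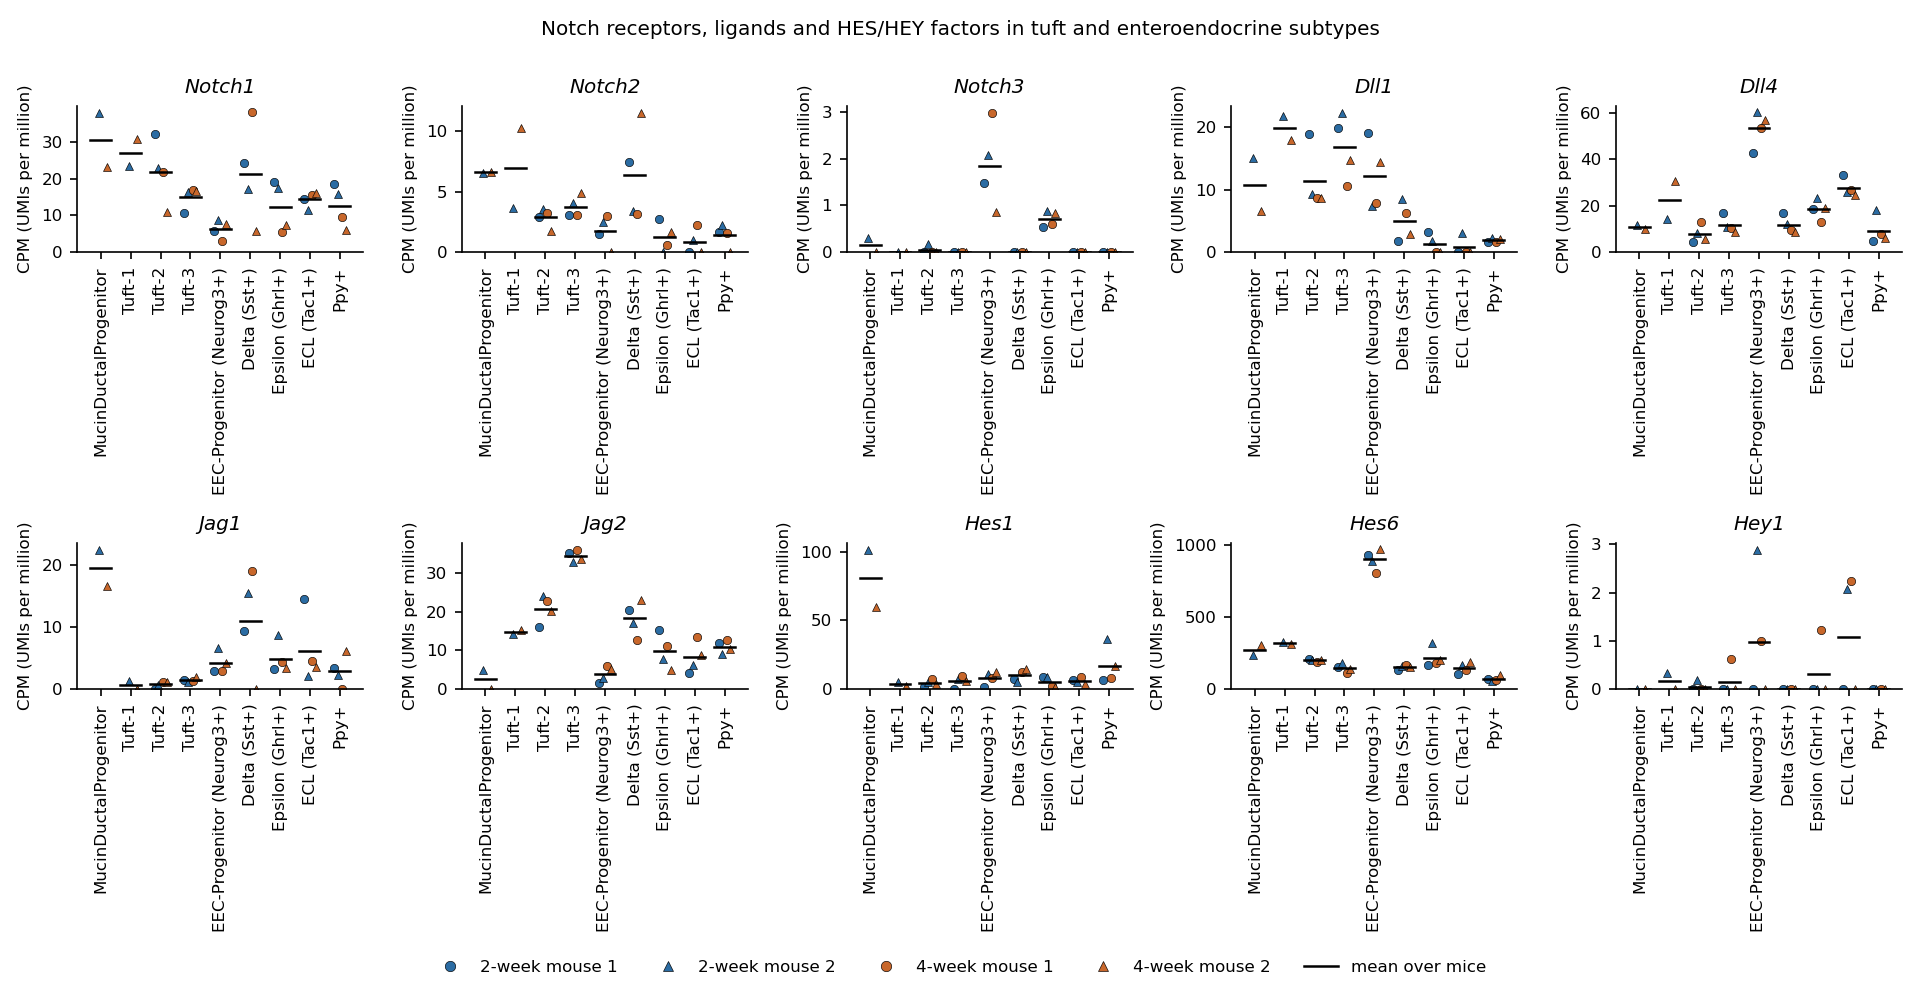
Level of each member in CPM (linear axes that differ between panels) in the 9 tuft and enteroendocrine subtypes; each point is 1 mouse with at least 20 cells and the bar is the mean over mice. Hes6 and Dll4 peak in EEC-Progenitor (Neurog3+) cells (means 898 and 53.4 CPM), Jag2 in Tuft-3 (34.4 CPM) and Hes1 in MucinDuctalProgenitor cells (80.7 CPM).

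Hes1, the repressor switched on by Notch receptors, was highest in Ductal-like and MucinDuctal cells. Ductal-like cells had 296 and 244 CPM at 2 weeks and 266 and 318 CPM at 4 weeks, and MucinDuctal cells 163 and 172 CPM at 2 weeks and 154 CPM in both 4-week mice. Neither type overlapped with the other or with any type below them, and the within-mouse log2 difference was 0.80 ± 0.22 (SD), higher in 4 of 4 mice. Acinar/MucinDuctal intermediates had 88.0 ± 11.5 CPM (SD, n = 4), overlapping with the 68.2 ± 22.8 CPM of Tuft/EEC.Progenitor cells (n = 3). Acinar.Prolif had 14.6 ± 3.7 CPM, Acinar 13.6 ± 7.9 CPM, Tuft 7.3 ± 2.2 CPM and EEC 7.0 ± 1.7 CPM. Acinar cells overlapped with each of the other 3, and Acinar.Prolif lay above Tuft and EEC in every mouse. MucinDuctal exceeded Acinar cells by a log2 difference of 3.62 ± 0.69, and by 2.36 without enzyme and Reg genes in the totals, higher in 4 of 4 mice both times.

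By type, the step down from Tuft/EEC.Progenitor to committed cells was large. Hes1 was lower in Tuft and EEC cells than in Tuft/EEC.Progenitor cells by log2 differences of 2.89 ± 0.53 and 3.08 ± 0.36 (SD), in 3 of 3 mice each. In the subtypes, MucinDuctalProgenitor cells had 102 and 59.7 CPM in the mice with enough cells, on 325 and 18 UMIs. No other subtype reached those values. EEC-Progenitor (Neurog3+) cells had 8.2 ± 4.9 CPM (SD, n = 4), already near the 7.0 CPM of the EEC type. By subtype the drop on the endocrine side thus lay between these progenitors. Tuft-1 cells had 3.7 ± 1.7 CPM (n = 2), Tuft-2 4.4 ± 2.6 CPM and Tuft-3 5.6 ± 4.0 CPM (SD, n = 4), so every tuft subtype was already low. Tuft and EEC cells overlapped, with Tuft higher in 2 of 4 mice, so no difference between the committed lineages is read. B cells had 19.5 ± 8.8 CPM of Hes1 and 32.4 CPM of Notch2, and are not taken as a floor for Hes1.

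Hes6 peaked in the Neurog3-positive endocrine progenitors. On the full totals the means of the 5 acinar, mucinous and ductal types fell in the same order as for Hes1. Without enzyme and Reg genes MucinDuctal lay below Acinar/MucinDuctal cells for Hes6 in 4 of 4 mice (log2 ratio -0.30) and above them for Hes1 in 4 of 4 (0.43). Hes6 was high in Tuft and EEC cells, where Hes1 was low. The EEC-Progenitor (Neurog3+) subtype had 932 and 886 CPM at 2 weeks and 804 and 969 CPM at 4 weeks, a mean of 898 ± 71.3 CPM (SD, n = 4). The next mean was that of Tuft-1 cells, with 323 and 312 CPM (n = 2), and the highest subtype stood apart from all others in every mouse. MucinDuctalProgenitor cells had 273 ± 50.7 CPM (n = 2), Epsilon 217 ± 67.6 CPM, Tuft-2 199.9 ± 7.9 CPM, Delta 150.3 ± 15.7 CPM, ECL 149 ± 37.0 CPM, Tuft-3 145 ± 29.7 CPM and Ppy+ 71.5 ± 18.1 CPM. From EEC-Progenitor to Ppy+ cells Hes6 fell by 3.66 ± 0.29 on the log2 scale, and to Epsilon cells by 2.09 ± 0.42, in 4 of 4 mice. At 2000 UMIs, 73.1% to 80.4% of EEC-Progenitor cells had a Hes6 UMI, against 7.77% to 11.7% of B cells.

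In the tuft branch Hes6 also decreased along the numbered subtypes. Tuft-1 exceeded Tuft-2 in 2 of 2 mice, with a log2 difference of 0.64 ± 0.03, and Tuft-3 was lower than Tuft-2 in 4 of 4 mice, with a difference of -0.48 ± 0.25 (SD). By type, Tuft/EEC.Progenitor had 388 ± 93.1 CPM (n = 3) and EEC 361 ± 104 CPM, which overlapped. Tuft cells had 187 ± 27.4 CPM, Ductal-like 66.5 ± 9.5 CPM, MucinDuctal 52.9 ± 4.0 CPM, Acinar/MucinDuctal 48.4 ± 7.6 CPM, Acinar.Prolif 19.8 ± 6.0 CPM and Acinar 17.1 ± 7.3 CPM.

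Hey1, a Notch target of vessels, had its highest mean in Ductal-like cells, on 13, 9, 1 and 5 UMIs in the 4 mice. Its level there was 9.88 and 3.75 CPM at 2 weeks and 2.18 and 10.2 CPM at 4 weeks. Its mean in the other types was at most 0.9 CPM. No Hey1 UMI was found in Delta, Ppy+ or MucinDuctalProgenitor cells.

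The 4 ligands and the 3 receptors were summed to compare types as possible senders and receivers. These sums count transcript ends and differ in capture between genes, so only differences of the ratio between types are read. In the 5 acinar, mucinous and ductal types the ligand-to-receptor ratio was the lower, with mean log2 values of -1.43 ± 0.31 in Acinar, -1.66 ± 0.35 in Acinar.Prolif, -1.41 ± 0.27 in Acinar/MucinDuctal, -1.36 ± 0.33 in MucinDuctal and -1.57 ± 0.47 in Ductal-like cells (SD, n = 4). In the other 3 types it was higher in every mouse: 0.99 ± 0.49 in Tuft/EEC.Progenitor (n = 3), 1.13 ± 0.12 in Tuft and 1.64 ± 0.43 in EEC. The ranges of the groups of types did not overlap.

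The ratio peaked in EEC-Progenitor (Neurog3+) cells, at 2.80 ± 0.27 (SD, n = 4), with 73.7 ± 6.7 CPM of ligands and 9.9 ± 2.2 CPM of receptors. Among the 9 subtypes its mean was lowest in MucinDuctalProgenitor cells, at 0.27 and 0.15 in the mice with enough cells. Dll4 made 72.3% of the ligand UMIs in EEC-Progenitor cells, Jag2 53.9% in Tuft-3 and Jag1 45.8% in MucinDuctalProgenitor cells. In MucinDuctal cells 64.6% of a much smaller ligand sum, 15.6 ± 4.7 CPM, was Jag1.

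Counted cell by cell and without thinning, cells with a ligand alone were more frequent in EEC-Progenitor than in MucinDuctal cells. In EEC-Progenitor (Neurog3+) cells 44.7% to 58.9% of a mouse's cells had a UMI of at least 1 ligand and of no receptor, and 2.11% to 4.82% had a receptor alone. In MucinDuctal cells the shares were 6.87% to 13.2% ligand alone and 33.8% to 37.1% receptor alone. Median depth was 11361 to 14480 UMIs in the first and 15110 to 21810 UMIs in the second. The shares were not compared at equal depth, and the part of depth in them was not tested. Cells with both were 4.71% to 9.64% and 9.57% to 23.6%.

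**Figure D3:**
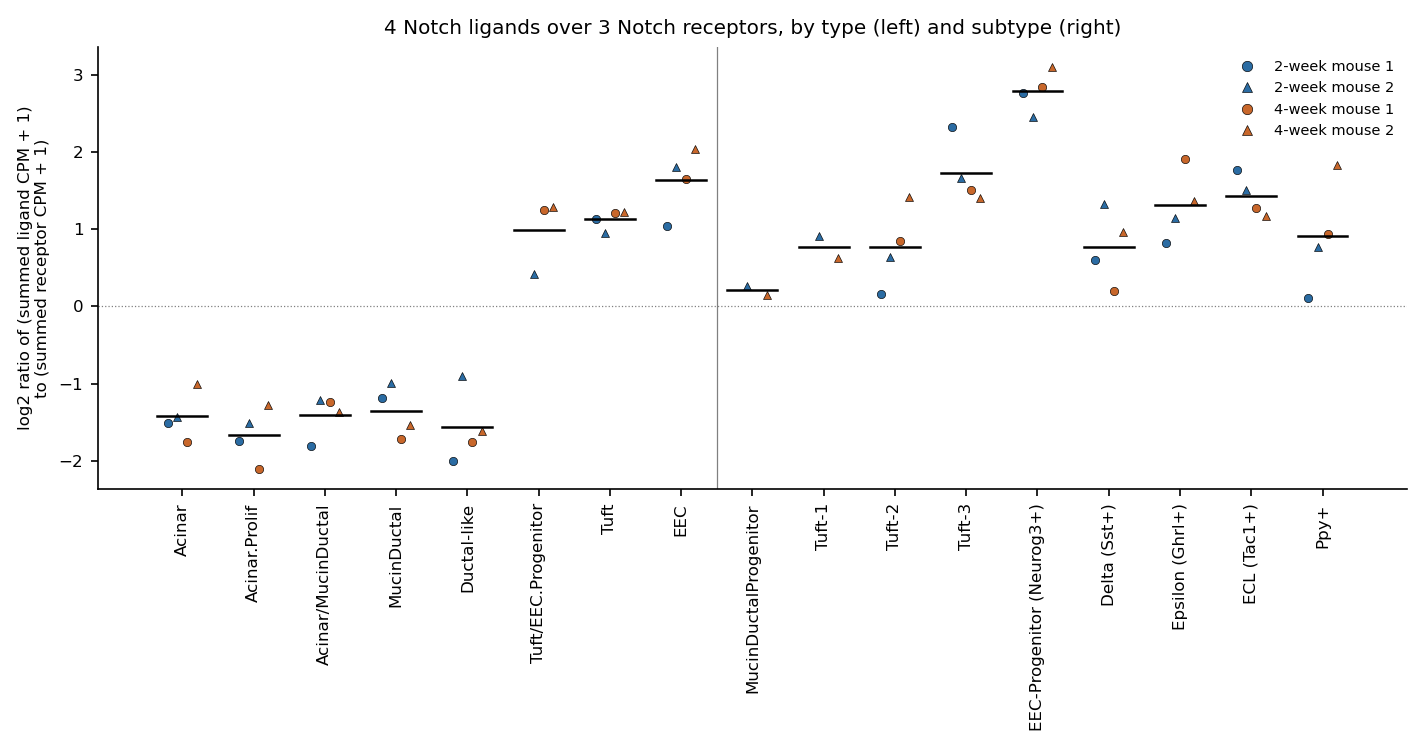
Log2 ratio of the summed CPM of Dll1, Dll4, Jag1 and Jag2 to that of Notch1, Notch2 and Notch3, with 1 CPM added to each sum, for 8 types and 9 subtypes; points are mice with at least 20 cells and bars are means. The acinar, mucinous and ductal types lie below the tuft and EEC lineages in every mouse, with the highest mean, 2.80, in EEC-Progenitor (Neurog3+) cells.

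Within types, cells with a Neurog3 UMI were compared with cells without one in the same mouse, by an exact sign-flip test over mice with a prior of 1 CPM. With 4 mice the smallest two-sided p is 0.13, and with 3 mice 0.25, so no comparison could pass 0.05; 50 tests were made. In EEC, Hes6 was 549 and 769 CPM in the positive cells of the 2-week mice and 652 and 814 CPM in those of the 4-week mice. The negative cells of the same mice had 126 and 164 CPM and 147 and 164 CPM, with no overlap. The log2 difference was 2.20 ± 0.08 (SD), higher in 4 of 4 mice (exact p = 0.13, adjusted 0.781). For Dll4 it was 1.25 ± 0.21, also in 4 of 4 mice (exact p = 0.13, adjusted 0.781), with 35.3 to 50.4 CPM in positive and 16.0 to 21.0 CPM in negative cells. Hes1 showed no common direction, at -0.64 ± 0.92 (SD), higher in 2 of 4 mice (exact p = 0.5, adjusted 0.781). This split largely re-separates the EEC-Progenitor (Neurog3+) subtype, which was named for Neurog3 and supplies 333 of the EEC cells.

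Inside the EEC-Progenitor (Neurog3+) subtype itself, 3 mice had at least 10 cells on each side. Hes6 remained higher in Neurog3-positive cells in 3 of 3 mice, by 0.73 ± 0.13 on the log2 scale (SD, exact p = 0.25). Dll1 was lower in 3 of 3 mice, at -1.16 ± 0.13 (exact p = 0.25), and rested on 3 to 6 UMIs in the negative cells of each mouse. Notch1 was lower in 3 of 3 at -1.49 ± 0.97 (exact p = 0.25), on only 21, 3 and 9 UMIs of both sides together. Dll4 showed no common direction at 0.01 ± 0.34 (exact p = 1). Hes1 showed none either, at 0.34 ± 2.74, higher in 1 of 3 mice. Notch3 was higher in Neurog3-positive cells in 3 of 3 mice of the subtype, at 1.67 ± 0.61 (exact p = 0.25), and in 4 of 4 mice of EEC, at 0.78 ± 0.52 (exact p = 0.13, adjusted 0.781). These Notch3 values rest on 1 to 5 UMIs in the positive cells and 0 or 1 in the negative cells of a mouse, too few to read a difference from. Median depth was 14315, 11970 and 11142 UMIs in the positive cells of these mice and 15656, 10765 and 13082 UMIs in their negative cells, higher on no one side throughout. In Tuft/EEC.Progenitor cells only the second 2-week mouse could be split, into 32 positive and 110 negative cells. There Dll4 was 44.5 against 9.59 CPM and Hes6 520 against 231 CPM, and Hes1 had a log2 difference of 0.34, with no test. This split in part re-separates the subtypes mixed in that type. In the same mouse EEC-Progenitor (Neurog3+) cells had 60.3 CPM of Dll4 and 886 CPM of Hes6, and MucinDuctalProgenitor cells 11.6 and 237 CPM. The part of subtype in the difference was not tested.

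Tuft cells were also divided by a Dll1 UMI. Positive cells had more Jag2 in 4 of 4 mice, with 25.8, 27.6, 35.5 and 35.1 CPM against 24.9, 21.6, 27.3 and 25.1 CPM. The log2 difference was 0.31 ± 0.18 (SD, exact p = 0.13, adjusted 0.781), and positive cells were deeper, at medians of 16232 to 21922 UMIs against 14749 to 19935. Tuft-3 cells were above Tuft-2 cells in 4 of 4 mice for both Dll1 and Jag2, so the split may in part re-separate these subtypes. The parts of depth and of subtype in the difference were not tested. Hes1 in the same cells stood at -0.62 ± 0.63, higher in 1 of 4 mice (exact p = 0.25), and the direction turned to 0.36 when positive cells needed at least 2 Dll1 UMIs.

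**Figure D4:**
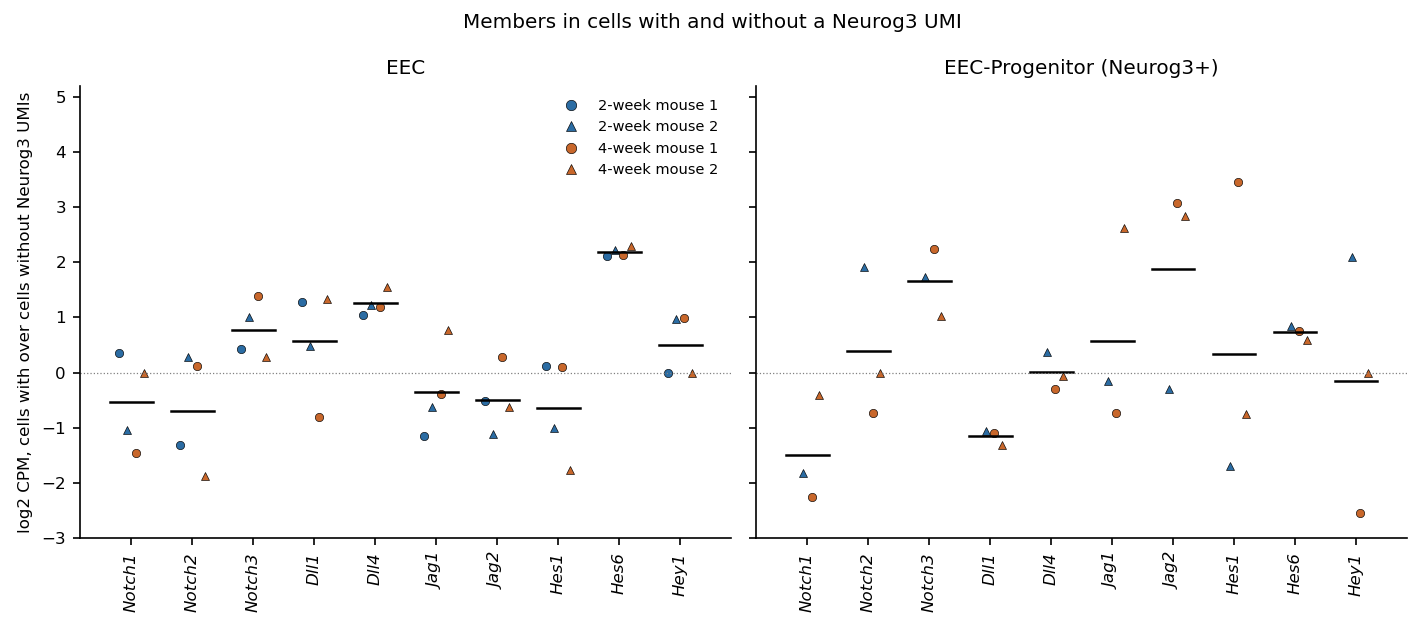
Log2 ratio of CPM in cells with a Neurog3 UMI to CPM in cells without, for the 10 members in EEC (left) and in the EEC-Progenitor (Neurog3+) subtype (right), with 1 CPM added; points are mice with at least 10 cells on each side and bars are means. Hes6 lies above 0 in every mouse in both panels (means 2.20 and 0.73), as does Notch3 on 1 to 5 UMIs a mouse in positive cells (means 0.78 and 1.67), and Dll1 lies below 0 in every mouse in the right panel only.

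Between 2 and 4 weeks of caerulein no member changed past the threshold. Sums per mouse were compared with edgeR's quasi-likelihood test in the 14 types and subtypes with at least 20 cells in each mouse, with p adjusted over all genes of a type by the Benjamini-Hochberg method at 0.05. Of 140 pairs of a member and a type, 70 passed the filter on low counts, and a member that is low in a type was therefore not tested there. None of the 70 was called by edgeR, 6 (8.57%) had an unadjusted p under 0.05, and DESeq2 called none of 109. As background, 4.71% of all gene tests had an unadjusted edgeR p under 0.05. The adjusted calls over all genes were 0% in Acinar, Acinar/MucinDuctal, MucinDuctal, Ductal-like, Tuft, EEC, Tuft-2 and Epsilon cells, 0.00995% in Acinar.Prolif, 0.114% in Tuft-3, 0.0453% in EEC-Progenitor, 0.0154% in Delta, 0.0816% in ECL and 0.159% in Ppy+ cells. Of the 70, 31 were higher and 39 lower at 4 weeks with a median log2 change of -0.06, and the medians over all genes lay between -0.03 and 0.01 by type. The 3 types or subtypes with too few cells, Tuft/EEC.Progenitor, MucinDuctalProgenitor and Tuft-1, were not part of these tests. With at least 10 cells per mouse, Tuft/EEC.Progenitor cells could be tested for 3 members, from 10, 142, 25 and 28 cells. There Hes1 had a change of -0.97 ± 0.33, Dll4 of 0.85 ± 0.52 and Hes6 of -0.21 ± 0.40 (SE), none of them called (each edgeR adjusted p = 0.999897), with 0.0375% of all 5334 genes called.

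The 6 pairs under an unadjusted 0.05 are given as values. Jag1 in MucinDuctal cells was 12.3 and 12.7 CPM at 2 weeks and 7.63 and 7.46 CPM at 4 weeks, a log2 change of -0.60 ± 0.15 (SE; edgeR adjusted p = 0.824). Dll1 in Tuft cells was 18.1 and 16.0 CPM against 10.8 and 12.1 CPM, a change of -0.54 ± 0.22 (SE; edgeR adjusted p = 0.697). In both pairs the time points did not overlap. For Tuft-3, Dll1 had a change of -0.75 ± 0.29 (SE; edgeR adjusted p = 0.652) and Hes6 of -0.45 ± 0.18 (SE; edgeR adjusted p = 0.676). In Epsilon cells Notch1 was 19.0 and 17.4 CPM against 5.52 and 7.54 CPM, a change of -1.31 ± 0.39 (SE; edgeR adjusted p = 0.999). Hes1 there was 8.70 and 8.72 CPM against 2.45 and 1.68 CPM, from 16, 10, 4 and 2 UMIs, a change of -1.80 ± 0.65 (SE; edgeR adjusted p = 0.999).

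Dll1 had a negative estimate in all 6 types and subtypes where it was tested, with a median of -0.65, though these share mice and partly cells. Hes6, tested in all 14, was higher in 7 and lower in 7, and in EEC-Progenitor cells its change was -0.07 ± 0.15 (SE; edgeR adjusted p = 0.986). Dll4 in the same cells had a change of 0.01 ± 0.23 (SE; edgeR adjusted p = 0.999), and Hes1 in MucinDuctal cells of 0.00 ± 0.13 (SE; edgeR adjusted p = 0.997).

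**Figure D5:**
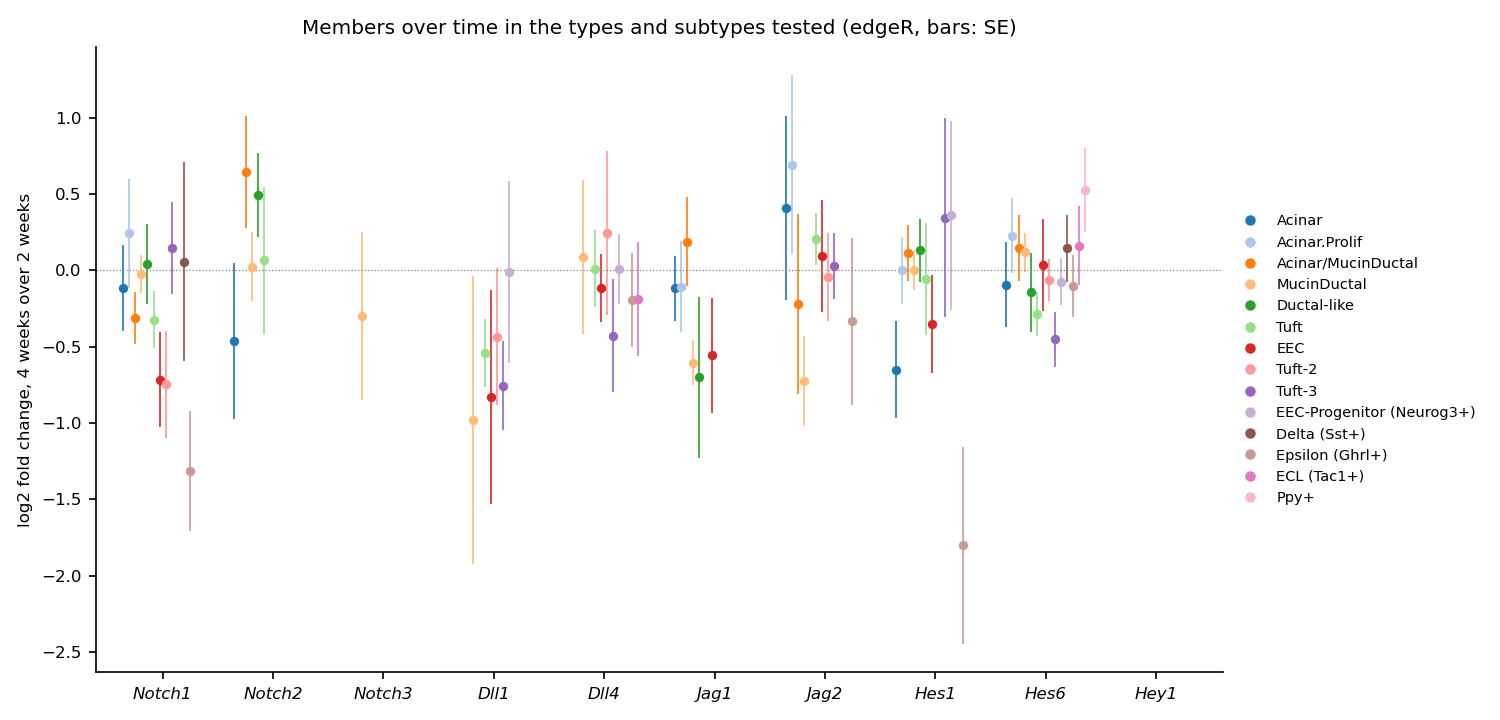
Log2 fold change of each member from 2 to 4 weeks of caerulein in the types and subtypes where it passed the filter on low counts; points are edgeR estimates from 2 against 2 mice and bars are standard errors. Estimates lie on both sides of 0 for most members, those of Dll1 all below 0, and none passed the adjusted threshold; Hey1 was tested in no type.

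Other genes of the pathway were read from a list of 49 in 6 roles. Over time, 456 pairs of such a gene and a type were tested with edgeR, of which 0 were called, 36 (7.89%, beside 4.71% of all gene tests) had an unadjusted p under 0.05, and 211 were higher and 245 lower at 4 weeks, with a median log2 change of -0.03. DESeq2 called 1 of 539, Ccnd1 in MucinDuctal cells. Over all genes DESeq2 called 0.0922%. Fits without 1 mouse leave 1 mouse at a time point, so their calls are not read. Among other receptors and ligands, Dll3, a Delta-like protein known to act inside the cell that makes it, was the highest, at 85.3 CPM in Tuft/EEC.Progenitor, 53.3 in EEC and 18.0 in Tuft cells. It peaked at 174 CPM in EEC-Progenitor (Neurog3+) cells. Dner, a transmembrane protein with Delta-like repeats, was 32.7 CPM in EEC and at most 2.2 CPM in the other types. Notch4, the endothelial receptor, averaged 1.03 CPM over progenitor, Tuft and EEC cells.

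Fringe enzymes, which add sugars to Notch receptors and alter which ligands they answer, include Lfng and Mfng. Lfng was 69.1 CPM in Tuft/EEC.Progenitor, 45.1 CPM in Tuft and 16.9 CPM in EEC, against 10.6 CPM in MucinDuctal cells. Mfng was 42.0 CPM in EEC and 104 CPM in EEC-Progenitor (Neurog3+) cells, and 4.1 CPM in Tuft cells. Poglut1, which adds glucose to the receptor, ran from 14.5 to 21.7 CPM in those 3 types. Of targets shared with other pathways, Sox9, a duct and progenitor factor, was 785 CPM in Tuft, 517 CPM in Tuft/EEC.Progenitor and 86.5 CPM in EEC. Ccnd1, a cell-cycle cyclin, was 389 CPM in Ductal-like and 67.3 CPM in Tuft/EEC.Progenitor cells, and Myc 15.6 CPM in the latter.

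Machinery common to all receptors was detected in each of the 3 lineage types. Psenen, a subunit of the gamma-secretase that frees the intracellular part, was 225 to 324 CPM in the 3 lineage types and 238 CPM in MucinDuctal cells. Adam10, which makes the preceding cut, was 43.2 to 87.7 CPM there, and the secretase subunit Aph1a 55.1 to 58.9 CPM. Nuclear partners were Spen at 45.7 to 69.1 CPM and the coactivator Maml3 at 28.2 to 56.7 CPM. Mib1, the ligase that arms ligands in sender cells, was 79.6 CPM in EEC and 34.0 CPM in Tuft cells. The endocytic adaptor Epn1 was 87.0 to 93.3 CPM and the ligase Itch 45.0 to 57.5 CPM.

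Genes of lineage commitment were read beside the members. Neurog3 was 2411 CPM in EEC-Progenitor (Neurog3+) and 35.6 CPM in MucinDuctalProgenitor cells. Insm1 and Neurod1 reached 893 and 668 CPM in EEC-Progenitor cells, and Tubb3 951 CPM. Sox4 was 3604 CPM there, 3683 CPM in MucinDuctalProgenitor and 1582 CPM in Tuft-1 cells, and Pou2f3 201 CPM in the last. Atoh1, the secretory factor of the gut, had a mean of 0 CPM in each type and subtype.

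Genes most alike to each member were taken by Pearson's r of log2(CPM + 1) over 52 sums of a mouse and a type, drawn from 14 types and subtypes that share mice and libraries, among 11417 genes. Hes6 was most like Mycl (r = 0.95), Top1 (0.94) and Prdx2 (0.94). Hes1 went with Spp1 (0.93), Mal (0.92) and Clu (0.90), and Dll4 with Gse1 (0.92), Polb (0.91) and Adprh (0.90). Jag2 went with Hivep3 (0.89), Anks4b (0.88) and Card19 (0.88), and Dll1 with Svil (0.87), Baz1a (0.85) and Pgpep1 (0.84). Closest to Notch2 were Cd14 (0.85), Selenbp1 (0.83) and Slc28a3 (0.82), to Jag1 Tacc2 (0.80), Cyp39a1 (0.78) and Nfia (0.76), and to Notch1 Tmem37 (0.77), Nr5a2 (0.75) and Ahnak (0.74). Hey1 (Ntrk2, 0.85; Veph1, 0.81; Egflam, 0.79) and Notch3 (Ppp1r14a, 0.74; Megf6, 0.71; Ifitm1, 0.70) reach too few UMIs for such values to be read.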

How the data were processed

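Per the submitters' processing notes, Cell Ranger 4.0.0, Seurat 3.2.3 and the build mm10 were used; the role of each is not given in the sources used here. The authors deposited a table of UMI counts that are not normalized, and a type name for each cell; how cells were named is not given in the sources used here. Cells were assigned to mice by the sample name in each cell name. The table of tuft and enteroendocrine counts was not used, since the cells are in the larger table.

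Counts were summed per mouse and type and scaled to CPM. Log2 differences between types or subtypes were taken within mice with 1 CPM added to each level. Levels are mean and SD over mice with at least 20 cells of the type. Shares of positive cells were taken at 2000 UMIs by the hypergeometric expectation, leaving out shallower cells. edgeR 4.0.16 (quasi-likelihood, robust, TMM, filterByExpr) under R 4.3.3 compared 4 with 2 weeks on the counts, with DESeq2 1.42.0 as an alternative; the edgeR steps were tested on simulated data. The mouse is the replicate, with 2 per time point. Doublets were not removed.

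Named were the 10 members, pathway genes past the threshold or among the 3 highest of a role over progenitor, Tuft and EEC cells, the 3 genes most alike to each member (mean of at least 10 CPM in a type), and 8 commitment genes; 2 genes that this rule names are not reported here. The members and lists were chosen with earlier results of these data known. Likeness used 5 types outside the subtype table and its 9 subtypes, because all 205 Tuft/EEC.Progenitor cells carry a subtype.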

Additional observations from a re-analysis of the deposited data

How the results depend on the processing

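No paired analysis was possible because the replicate numbers were given in accession order and pair no mice. The count of members called over time was 0 under DESeq2, RLE scaling, no gene filter and a fit that was not robust. It was also 0 under library sizes without enzyme genes and a minimum of 10 cells. Fits without 1 mouse leave 1 mouse at a time point, so only their effect sizes are given. Of 20 highest types and subtypes of the members, 17 to 20 stayed the same across settings; the highest type changed for Notch1, Notch3, Dll4, Jag1 or Hes6, and the highest subtype for Notch1, Notch2 or Hey1, under at least 1 setting each. No comparison by Neurog3 or Dll1 status could pass under any setting. Some estimates changed sign. Leaving out 1 mouse in turn, the change of Dll4 over time in EEC-Progenitor cells ran from -0.16 to 0.35, with -0.05 without the second 4-week mouse. That of Hes6 over time in EEC-Progenitor cells ran from -0.24 to 0.0883. For Jag2 over time in Tuft-3 cells it ran from -0.0239 to 0.0623, with -0.00314 without the first 4-week mouse. For Notch1 over time in Ductal-like cells it ran from -0.0855 to 0.15, with -0.058 without the second 2-week mouse and -0.0138 under no gene filter. Dll4 in EEC-Progenitor cells by Neurog3 ran from -0.18 to 0.16. Hes1 in Tuft cells by Dll1 was -0.62 and became 0.36 when positive cells needed at least 2 UMIs. These causes were not tested. Pathway calls over time were 0 in the main comparison (0.0243% of all gene tests). They were 5 or 0.768% under no gene filter (0.557% of all) and 1 or 0.186% with DESeq2 (0.0922% of all). Members with few UMIs in a type did not pass the filter of the main comparison there. Of the pairs of a member and a type, 70 were tested in it, 109 with DESeq2 and 134 under no gene filter.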

Other observations

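The same libraries hold 7778 cells without an author-given type, although EYFP-positive cells were sorted. Of these, 3926 were put in a class when they had a UMI of at least 3 of 6 fixed genes of that class and of no other class as many. EYFP UMIs were found in 6.08% to 9.72% of B-class and 6.70% to 18.8% of macrophage-class cells of a mouse; the typed cells come from a table already filtered for EYFP. In 150 endothelial-class cells Notch1 was 233 ± 65.2 CPM, Jag2 82.2 ± 25.6 CPM, Dll4 43.2 ± 19.1 CPM, Hes1 255 ± 29.7 CPM and Hey1 95.1 ± 33.7 CPM (SD, n = 4 mice). In 729 fibroblast-class cells Jag1 was 30.0 ± 0.4 CPM, Notch2 43.6 ± 5.8 CPM and Hes1 99.1 ± 7.5 CPM, with 1 Dll4 UMI in all. In 1687 macrophage-class cells Notch2 was 43.0 ± 3.9 CPM and Jag1 13.1 ± 3.7 CPM, and in 631 T-class cells Notch1 was 64.4 ± 20.4 CPM. Pericyte-class cells were frequent enough in 1 mouse, where 21 cells had 749 CPM of Notch3.

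Rbpjl, the acinar relative of RBPJ, was chosen here after its values were seen. Its estimate was lower at 4 weeks in 13 of the 14 types and subtypes, which share mice and partly cells. The unadjusted edgeR p was under 0.05 in 9 (64.3%), beside 4.71% of all gene tests. None was called after adjustment in the main comparison (smallest edgeR adjusted p 0.217). Rbpjl was called lower in EEC, Delta and Ppy+ cells under no gene filter, where 0.557% of all gene tests were called. Fits without 1 mouse leave 1 mouse at a time point, so their calls are not read. In Acinar cells it was 156 and 207 CPM at 2 weeks and 138 and 128 CPM at 4 weeks, lower without overlap on the CPM scale, while the TMM-scaled estimate was 0.02 ± 0.24 (SE). In EEC it was 36.0 and 42.0 CPM at 2 weeks and 11.6 and 17.4 CPM at 4 weeks, an estimate of -1.35 ± 0.20 (SE; edgeR adjusted p = 0.317). All 6 fixed acinar markers were detected in those cells, with a summed level of 3109 and 1981 CPM at 2 weeks and 1849 and 2162 CPM at 4 weeks. In MucinDuctal cells Rbpjl was 21.9 and 20.3 CPM against 9.47 and 10.3 CPM, beside marker sums of 4129 and 1193 CPM against 3739 and 3350 CPM. The part of acinar RNA in these values was not tested.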
